A study of Mus musculus with 6 samples.

Results

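The 10 genes described here encode the subunits of the transcription factor NF-κB (Nfkb1, Nfkb2, Rela, Relb and Rel), its inhibitors Nfkbia and Tnfaip3, the kinase Ikbkb, and Malt1 and Bcl10, which carry signals from antigen receptors to that kinase. They were chosen by gene symbol, with earlier results of these data known, and all 10 were found among the 17987 genes of the table. RNA was sequenced from lung tumor specimens of 3 Usp24C1695A mice (M134, M145 and M164) and 3 Usp24WT mice (M1354, M1364 and M1370), with 1 library per mouse. All 6 mice carried an inducible Egfr L858R transgene and were given doxycycline at 0.5 g/liter for 10 weeks. In this C57BL/6J model the promoter of Scgb1a1, a gene of club cells, drives the doxycycline-responsive activator that turns on Egfr L858R. The Usp24 mutation replaces the catalytic cysteine of the deubiquitinase with alanine in the gene itself, so it is present in tumor cells and in all other cells of the specimen. The mutation was made by CRISPR/Cas9 and is homozygous in Usp24C1695A mice. Sex, age and batch are not given in the sources used here.

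In resting cells NF-κB dimers are held in the cytoplasm by IκB proteins, of which IκBα, the product of Nfkbia, is the best known. IKKβ, encoded by Ikbkb, phosphorylates IκBα, which is then ubiquitinated and degraded, and the freed dimers enter the nucleus. In lymphocytes and other cells CARD proteins, BCL10 and the paracaspase MALT1 assemble into a complex that recruits ubiquitin ligases and activates IKK. A20, the product of Tnfaip3, edits ubiquitin chains and ends the signal. In lung epithelium and in macrophages the pathway drives cytokine and survival genes.

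The question asked of these genes was whether their RNA levels differed between tumors with inactive and with wild-type USP24. Malt1 was lower in every Usp24C1695A mouse than in any Usp24WT mouse, and Rel was higher in every Usp24C1695A mouse. In the other 8 genes the values of the genotypes overlapped. No gene of the 10 passed the threshold of an adjusted p under 0.05 by limma-trend, edgeR or DESeq2. The calls of limma-trend over all 16640 tested genes were also 0% (0 higher and 0 lower), and those of edgeR 0%. DESeq2 called 0.221% (36) of the 16254 genes to which it gave an adjusted p. Groups that do not overlap were found in 2 of the 10 genes, against 11.1% of all tested genes. An unadjusted limma-trend p under 0.05 was found in the same 2 genes, against 5.54% (922) of all tested genes. By edgeR it was found in Rel, against 6.88% (1144) of all tested genes. By DESeq2 it was found in Rel and Malt1, against 8.25% (1367) of the 16577 genes with a p-value by that tool. The median log2 fold change was -0.07 over the 10 genes and -0.02 over all tested genes. The 10 genes were chosen with earlier results of these data known, so these comparisons describe the set and do not test it.

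Values are normalized read counts, that is, gene counts divided by a size factor per library. Fold changes are Usp24C1695A over Usp24WT, as differences of group means of log2(value + 1), with the SE of limma-trend and 3 mice per group. The libraries held 7167000 to 12516561 reads from Usp24C1695A mice and 8950184 to 14650273 reads from Usp24WT mice. Over the 10 genes and 6 libraries the reads behind a value ranged between 68 (Relb in mouse M164) and 9547 (Malt1 in mouse M1370). Each library is a separate mouse, and the p-values measure the spread between these mice.

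Mouse M164 stood apart from the other 5 in its mitochondrial share. It had the lowest alveolar type 2 and macrophage sums and the highest fat cell and heart muscle sums. Mitochondrial transcripts took 2.65 to 17.2% of the values in Usp24C1695A mice, with the highest share in mouse M164, and 1.74 to 3.02% in Usp24WT mice. The summed markers of alveolar type 2 cells were 166030 to 476055 normalized counts in Usp24C1695A mice and 527567 to 599523 in Usp24WT mice, and macrophage markers 4306 to 25350 in Usp24C1695A mice and 24398 to 39710 in Usp24WT mice. B cell markers summed to 230 to 9533 in Usp24C1695A mice and 286 to 300.2 in Usp24WT mice, and T cell markers to 457 to 1883 in Usp24C1695A mice and 297 to 540 in Usp24WT mice. Mouse M145 had the highest of both sums. Fat cell markers summed to 22.3 to 11392 in Usp24C1695A mice and 10.1 to 20.7 in Usp24WT mice, and heart muscle markers to 483 to 5350 in Usp24C1695A mice and 256 to 334 in Usp24WT mice. Myl1, a skeletal muscle gene, was at 5.07, 7.91 and 6767 in Usp24C1695A mice M134, M145 and M164. In Usp24WT mice M1354, M1364 and M1370 it was at 4.16, 1.44 and 1.88. All 8 B cell markers and all 8 tested T cell markers had a positive log2 fold change. Summed over Uty, Kdm5d and Eif2s3y, Y-linked transcripts reached 3448 to 3554 in Usp24C1695A mice and 3259 in Usp24WT mouse M1354, and none was counted in Usp24WT mice M1364 and M1370. By this measure every Usp24C1695A mouse and mouse M1354 were male, and mice M1364 and M1370 were female. Sex and genotype are thus partly confounded, and their parts in a difference cannot be fully told apart. The part of these differences in the results was not tested, apart from the fits without a mouse or with a covariate given beside them. Usp24 itself was at 887, 1054 and 1125 in Usp24C1695A mice and at 1194, 895 and 1225 in Usp24WT mice (log2 fold change -0.11, SE 0.19), which does not check a label that rests on an amino acid change. In bulk tissue, fewer cells of a type and less RNA per cell cannot be told apart.

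**Figure D1:**
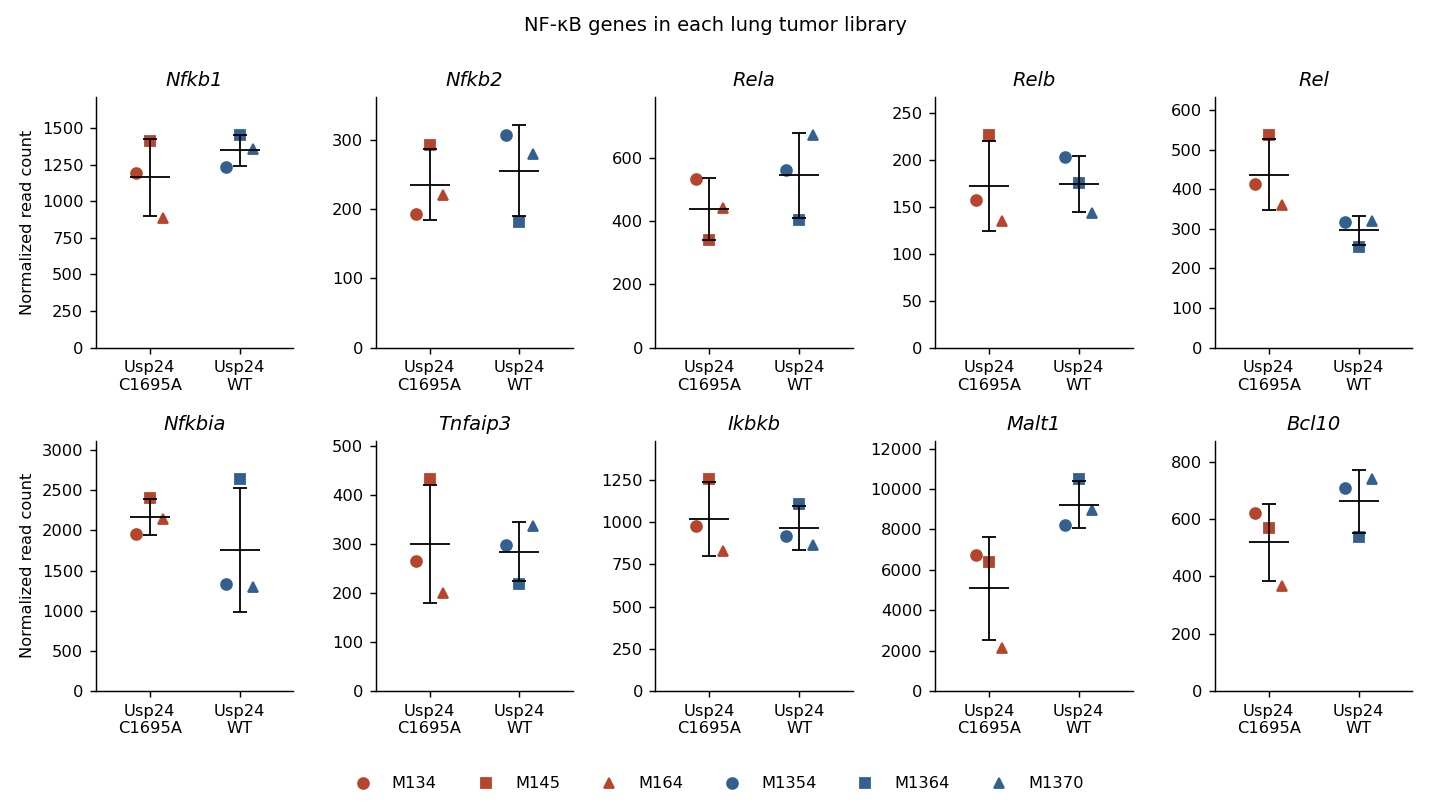
Normalized read count (vertical axis, from 0) of each of the 10 genes in the 3 Usp24C1695A libraries (left, red) and the 3 Usp24WT libraries (right, blue), with 1 symbol per mouse and the mean and SD in black. Malt1 is lower in each Usp24C1695A mouse (2152 to 6720) than in any Usp24WT mouse (8207 to 10502), Rel is higher (360 to 536 in Usp24C1695A mice against 253 to 319 in Usp24WT mice), and the other 8 genes overlap.

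Several NF-κB genes are known to be NF-κB targets themselves, which makes their promoters a part of the feedback in this pathway. RefSeq promoter windows (GRCm38.p6, 250 bases before to 50 bases after a start site) were matched by symbol and used for 6 of the 10 genes, with 9 windows in all. Malt1 was left out of this search by a rule on where genes lie, so its promoter was not examined. That rule was not applied to the counts over all genes given below. The κB consensus was searched on both strands. It matched for 5 of the 6 genes (Nfkb2, Rel, Nfkbia, Tnfaip3 and Bcl10), against 9.55% of all 27025 genes with a window. By window it matched in 7 of 9, against 8.46% of all 32851 windows, where windows 2 and 3 of Nfkb2 overlap and share a match. The window of Rela held no match. Shown here, 5′ to 3′ on the strand of the gene with matches in capitals, are the windows of Rel, the gene higher in every Usp24C1695A mouse, of the feedback inhibitors Nfkbia and Tnfaip3, and of Nfkb2, whose first window held the most matches.
Rel, chr11:23770920-23771219, minus strand: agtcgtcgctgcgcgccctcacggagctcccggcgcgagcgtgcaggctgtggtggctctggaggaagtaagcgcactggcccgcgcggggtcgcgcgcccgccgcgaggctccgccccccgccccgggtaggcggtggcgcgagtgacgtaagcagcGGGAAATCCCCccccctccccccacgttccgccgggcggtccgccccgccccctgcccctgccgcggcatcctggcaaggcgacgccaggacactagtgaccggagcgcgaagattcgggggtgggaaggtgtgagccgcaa
Nfkbia, chr12:55492598-55492897, minus strand: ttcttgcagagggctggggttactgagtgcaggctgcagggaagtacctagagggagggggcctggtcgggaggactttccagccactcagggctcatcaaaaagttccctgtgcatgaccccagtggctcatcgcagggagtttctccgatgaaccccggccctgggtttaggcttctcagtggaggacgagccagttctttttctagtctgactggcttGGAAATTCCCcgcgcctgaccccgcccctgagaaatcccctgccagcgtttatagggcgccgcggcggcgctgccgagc
Tnfaip3, chr10:19015361-19015660, minus strand: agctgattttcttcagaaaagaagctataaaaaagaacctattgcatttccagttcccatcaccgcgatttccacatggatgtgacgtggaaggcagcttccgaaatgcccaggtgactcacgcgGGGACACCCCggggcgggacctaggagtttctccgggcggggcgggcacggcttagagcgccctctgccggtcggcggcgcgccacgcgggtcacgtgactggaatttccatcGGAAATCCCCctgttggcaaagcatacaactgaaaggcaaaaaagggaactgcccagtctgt
Nfkb2, chr19:46304487-46304786, plus strand: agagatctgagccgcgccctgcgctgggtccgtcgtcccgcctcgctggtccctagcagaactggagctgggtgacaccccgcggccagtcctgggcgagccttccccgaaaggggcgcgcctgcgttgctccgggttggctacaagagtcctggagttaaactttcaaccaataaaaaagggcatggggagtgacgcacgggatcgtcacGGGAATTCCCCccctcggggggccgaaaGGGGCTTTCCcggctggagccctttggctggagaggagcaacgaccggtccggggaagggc
Counted from the start site, the 2 matches of Rel overlap and begin at -92 and -91. The match of Nfkbia begins at -29, and those of Tnfaip3 at -125 and -12. In Nfkb2 an overlapping pair begins at -39 and -38 and a further match at -11. A match describes the letters of these windows and was not tested as a binding site.

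Among the subunits, Rel was the gene whose groups did not overlap. Rel encodes c-Rel, a subunit with a transactivation domain that is known chiefly from lymphocytes. It was at 414, 536 and 360 normalized counts in Usp24C1695A mice M134, M145 and M164, against 317, 253 and 319 in Usp24WT mice M1354, M1364 and M1370. The lowest Usp24C1695A value, of mouse M164, lay above the highest Usp24WT value. The log2 fold change was 0.55 (SE 0.22, 95% interval 0.04 to 1.05, limma-trend unadjusted p = 0.037, adjusted p = 0.738). EdgeR gave 0.60 (adjusted p = 0.696) and DESeq2 0.58 (adjusted p = 0.498). With the mean of the Y-linked genes as a covariate, limma-trend gave 0.44 (unadjusted p = 0.247, adjusted p = 0.989). Leaving out a single mouse at a time gave 0.39 to 0.67, with the lowest value without mouse M145. The summed B cell markers of the same libraries were 230, 9533 and 3647 in Usp24C1695A mice and 300.2, 286 and 299 in Usp24WT mice. The T cell sums were 457, 1883 and 746 in Usp24C1695A mice and 297, 366 and 540 in Usp24WT mice. Mouse M145 was highest in Rel and in both sums. In mouse M134 the B cell sum lay below those of the Usp24WT mice, and the T cell sum lay within their range. Dendritic cell markers had a positive log2 fold change in 6 of 6. Their sums were 902, 1402 and 1206 in Usp24C1695A mice, against 493, 720 and 550 in Usp24WT mice. These sums did not overlap, but much of them was Clec9a and Zbtb46. Clec9a was at 453, 306 and 539 in Usp24C1695A mice, against 188, 258 and 221 in Usp24WT mice. Zbtb46 was at 338, 458 and 483 in Usp24C1695A mice, against 243, 379 and 250 in Usp24WT mice, and overlapped. Mouse M134 lay above every Usp24WT mouse in Clec9a, Flt3, Siglech and Itgae, and below mouse M1364 in Zbtb46 and Xcr1. The part of lymphocyte and dendritic cell numbers in the Rel levels was not tested.

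Rela encodes p65, the subunit with the main transactivation domain of the canonical dimer. It was at 532, 339 and 442 in Usp24C1695A mice and at 560, 402 and 670 in Usp24WT mice, and the ranges overlapped (log2 fold change -0.31, SE 0.26, adjusted p = 0.774). Nfkb1, which encodes p105, the precursor of the DNA-binding subunit p50, was at 1195, 1412 and 883 in Usp24C1695A mice and at 1237, 1451 and 1358 in Usp24WT mice. Mouse M164 had the lowest value, and mice M134 and M145 lay within or near the Usp24WT range (log2 fold change -0.24, SE 0.21, adjusted p = 0.784). Without mouse M164 the log2 fold change of Nfkb1 was -0.05, and without mouse M145 it was -0.39.

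The subunits of the noncanonical pathway overlapped between the genotypes as well. Nfkb2, which encodes p100, the precursor of p52, was at 194, 293 and 220 in Usp24C1695A mice and at 306, 181 and 279 in Usp24WT mice (log2 fold change -0.11, SE 0.28). Relb, whose product pairs with p52 and is a substrate of MALT1, was at 157, 227 and 135 in Usp24C1695A mice and at 204, 176 and 144 in Usp24WT mice. Its log2 fold change was -0.03 (SE 0.28, 95% interval -0.66 to 0.60), an interval that holds changes in both directions. Mouse M145 had the highest Relb and, among Usp24C1695A mice, the highest Nfkb2.

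**Figure D2:**
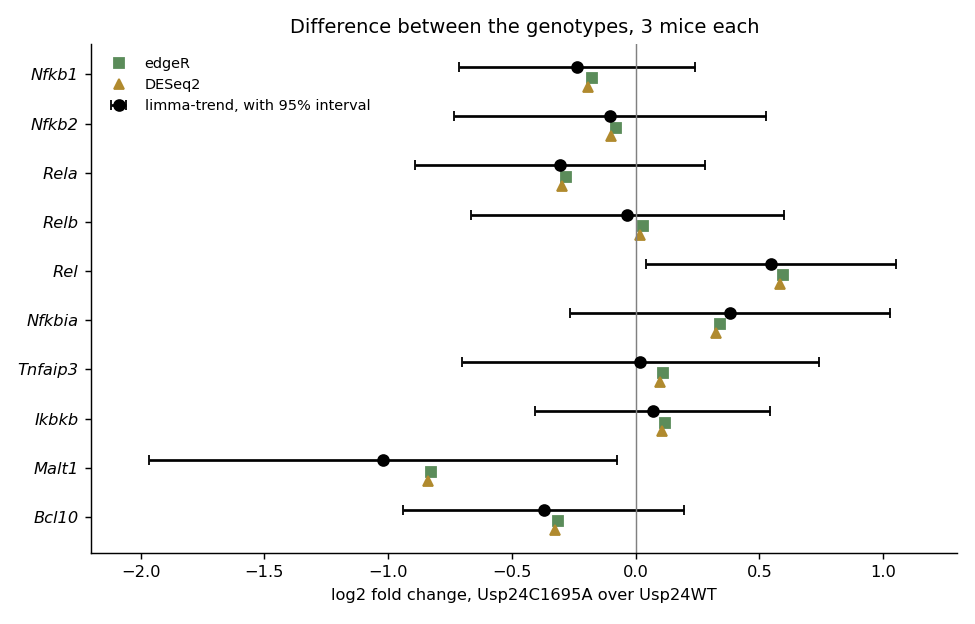
Log2 fold change of Usp24C1695A over Usp24WT (horizontal axis) for the 10 genes by limma-trend (black circles, bars are 95% intervals), edgeR (green squares) and DESeq2 (yellow triangles), 3 mice per group. The intervals of Rel (0.04 to 1.05) and Malt1 (-1.97 to -0.08) leave out 0 before adjustment, and those of the other 8 genes include it.

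Of the inhibitors, Nfkbia varied most among the Usp24WT mice. It was at 1952, 2402 and 2138 in Usp24C1695A mice, against 1332, 2641 and 1292 in Usp24WT mice. The 3 Usp24C1695A values lay above those of Usp24WT mice M1354 and M1370 and below that of mouse M1364. The log2 fold change was 0.38 (SE 0.28, limma-trend unadjusted p = 0.214, adjusted p = 0.756). Without mouse M1364 it was 0.72 (unadjusted p = 0.00372, adjusted p = 0.383), and with array weights, which gave mouse M1364 a weight of 0.354 on a range of 0.266 to 2.91, it was 0.73 (adjusted p = 0.0818). Mouse M1364 also had the highest values of Nfkbiz, Ptgs2 and Ier3, genes of the pathway lists that were picked after their values were seen. Nfkbiz, which encodes a nuclear IκB protein, was at 519, 470 and 653 in Usp24C1695A mice and at 290, 705 and 359 in Usp24WT mice. Ptgs2, which encodes the inducible cyclooxygenase, was at 206, 331 and 313 in Usp24C1695A mice and at 198, 737 and 351 in Usp24WT mice. Ier3, an immediate early gene of cell survival, was at 420, 404 and 503 in Usp24C1695A mice and at 391, 877 and 335 in Usp24WT mice. In mouse M1364 these 4 genes were 2.01 to 2.68 times the mean of the other Usp24WT mice. The summed neutrophil markers were also highest in that mouse, at 591, 753 and 731 in Usp24C1695A mice and at 483, 1293 and 826 in Usp24WT mice, and their part in these levels was not tested.

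**Figure D3:**
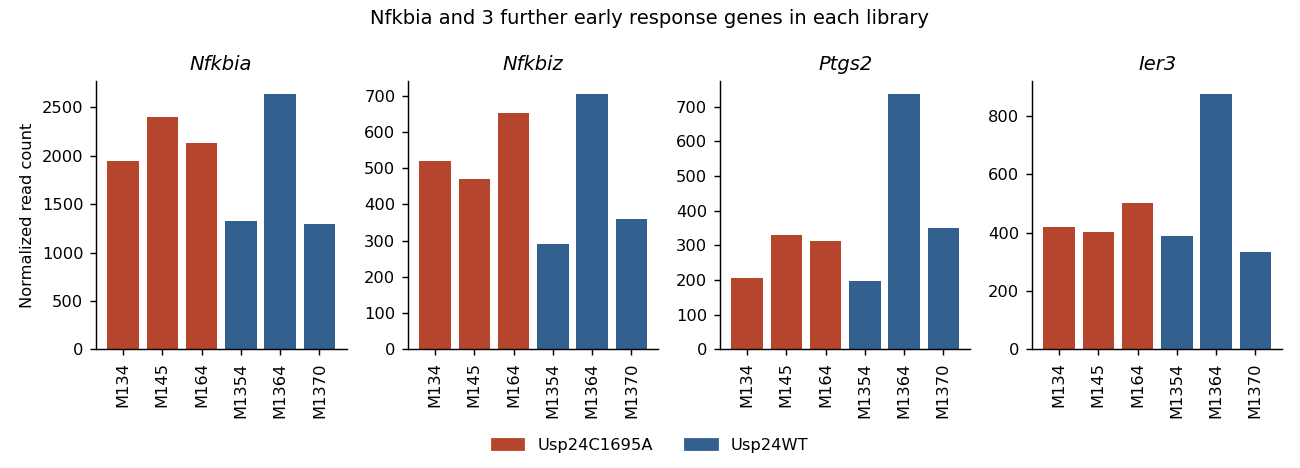
Normalized read count (vertical axis, from 0) of Nfkbia, Nfkbiz, Ptgs2 and Ier3 in each library, Usp24C1695A mice in red on the left and Usp24WT mice in blue on the right. Usp24WT mouse M1364 has the highest bar in all 4 genes (2641, 705, 737 and 877).

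Tnfaip3 did not share that pattern. It was at 265, 433 and 200 in Usp24C1695A mice and at 299, 219 and 337 in Usp24WT mice, with the lowest Usp24WT value in mouse M1364. Its log2 fold change was 0.02 (SE 0.32, adjusted p = 0.990), and the sign turned with the mouse left out (-0.28 without mouse M145). Ikbkb, the catalytic subunit that phosphorylates IκBα, was at 974, 1255 and 828 in Usp24C1695A mice and at 918, 1108 and 861 in Usp24WT mice. The ranges overlapped almost fully (log2 fold change 0.07, SE 0.21, 95% interval -0.41 to 0.54).

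Malt1 had the largest difference of the 10 genes. It encodes the paracaspase that both scaffolds IKK activation and cleaves brakes of the pathway. Malt1 was at 6720, 6404 and 2152 normalized counts in Usp24C1695A mice M134, M145 and M164, against 8207, 10502 and 8975 in Usp24WT mice M1354, M1364 and M1370. All 3 Usp24C1695A values lay below all 3 Usp24WT values, and mouse M164 lay far below the other 2 mice of its genotype. The log2 fold change was -1.02 (SE 0.41, 95% interval -1.97 to -0.08, limma-trend unadjusted p = 0.0373, adjusted p = 0.738). Without mouse M164 it was -0.48 (unadjusted p = 0.0314, adjusted p = 0.988), and with array weights, which gave that mouse a weight of 0.266, it was -0.52 (adjusted p = 0.169). EdgeR gave -0.83 (adjusted p = 0.696) and DESeq2 -0.84 (adjusted p = 0.540). With the mean of the Y-linked genes as a covariate, limma-trend gave -0.87 (unadjusted p = 0.203, adjusted p = 0.989).

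The sum of the alveolar type 2 cell markers was lower in the same libraries. All 8 had a negative log2 fold change (median -0.71). The groups did not overlap in 2 of the 8 (Sftpb and Slc34a2), against 6.03% of all tested genes, and overlapped in the rest. Nkx2-1 was highest of all libraries in Usp24C1695A mouse M134 (9558). The sums of the 8 markers were 461394, 476055 and 166030 in Usp24C1695A mice, against 527567, 535833 and 599523 in Usp24WT mice. For every 1000 normalized counts of these markers, a measure chosen after the values were seen, Malt1 was at 14.6, 13.5 and 13.0 in Usp24C1695A mice, against 15.6, 19.6 and 15.0 in Usp24WT mice. On this scale the groups did not overlap (13.7 ± 0.8 in Usp24C1695A mice against 16.7 ± 2.5 in Usp24WT mice, SD, n = 3 each). Sftpc alone gave 246486, 232206 and 67192 of the sums in Usp24C1695A mice and 240888, 291169 and 252096 in Usp24WT mice. Without Sftpc in the sums, the ranges of the ratio overlapped between the genotypes. An exact permutation test of the ratio with Sftpc included gave p = 0.1, the smallest value possible with 3 mice per group. The ratio is therefore given as a description. Macrophage markers also had a negative log2 fold change in 6 of 7 (median -0.64). Their sums were 25350, 21566 and 4306 in Usp24C1695A mice, against 31882, 24398 and 39710 in Usp24WT mice, so mouse M164 was again lowest. The part of alveolar type 2 cell and macrophage numbers in the Malt1 levels was not tested.

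**Figure D4:**
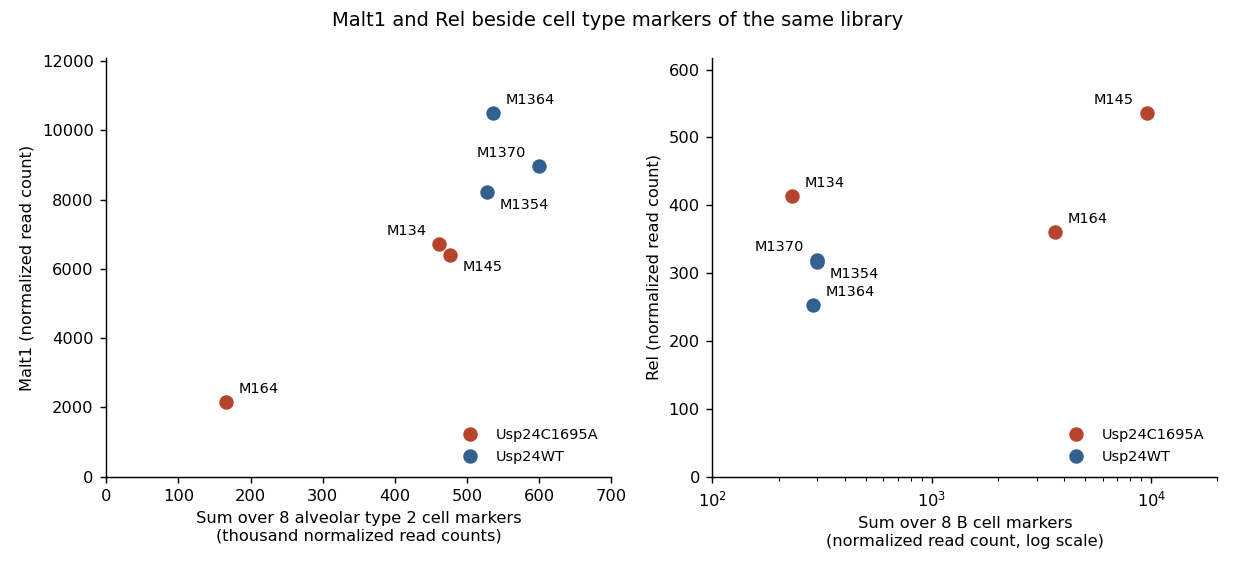
Left, Malt1 (normalized read count) against the sum over 8 alveolar type 2 cell markers (in units of 1000 normalized counts), and right, Rel against the sum over 8 B cell markers (log scale), 1 point per library, Usp24C1695A in red and Usp24WT in blue. Mouse M164 has the lowest Malt1 (2152) and the lowest alveolar type 2 sum (166030), and mouse M145 the highest Rel (536) and the highest B cell sum (9533).

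The genes with the pattern most like that of Malt1 were sought by the root mean square difference of mean-centered log2(value + 1) over the 6 libraries. Of all tested genes the 5 nearest were Igsf5, Hgfac, Rbpjl, 1700058P15Rik and Arfgef3, at 0.09 to 0.13 on the log2 scale. Igsf5, a junctional adhesion protein of the immunoglobulin superfamily, was at 431, 411 and 133 in Usp24C1695A mice and at 440, 659 and 557 in Usp24WT mice. Rbpjl, a relative of the Notch pathway factor RBPJ, was at 1174, 997 and 382 in Usp24C1695A mice and at 1389, 1526 and 1308 in Usp24WT mice. In all 5 genes mouse M164 was the lowest library. They were selected as the nearest of 16640 genes, so their likeness is a description of these libraries.

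Bcl10, the adaptor that binds MALT1, was at 621, 571 and 366 in Usp24C1695A mice and at 709, 537 and 741 in Usp24WT mice. The values overlapped through Usp24WT mouse M1364, and mouse M164 was lowest here too (log2 fold change -0.37, SE 0.25, adjusted p = 0.744). Without mouse M164 the log2 fold change of Bcl10 was -0.14.

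Levels of the 10 genes were set beside each other per kilobase of exon. Exon lengths were from GENCODE M21 (GRCm38), since the annotation the authors counted on is not given in the sources used here. Each length joins the exons of all annotated transcripts of a gene, from 1610 bases (Nfkbia) to 19078 (Ikbkb), and can exceed that of a single transcript. The order of the genes depends on these lengths. Nfkbia was highest, at 1344 ± 140 normalized counts per kilobase in Usp24C1695A mice and 1090 ± 477 in Usp24WT mice (SD, n = 3 each). Malt1 followed, at 282 ± 141 in Usp24C1695A mice and 512 ± 65 in Usp24WT mice, over 18040 bases of exon. Its partner Bcl10 was at 114 ± 29.6 in Usp24C1695A mice and 145.1 ± 24.1 in Usp24WT mice. Rela was at 142 ± 31 in Usp24C1695A mice and 177 ± 44 in Usp24WT mice, and Nfkb1 at 96.4 ± 22.04 in Usp24C1695A mice and 112 ± 8.89 in Usp24WT mice. Neighbors in this order overlapped, Rela with Bcl10 and Bcl10 with Nfkb1, in both genotypes. Malt1 overlapped with Rela in Usp24C1695A mice through mouse M164 (119) and lay above it in every Usp24WT mouse. With these lengths the remaining genes lay between 41.4 (Tnfaip3) and 58.5 (Rel) in Usp24C1695A mice and between 39.4 (Tnfaip3) and 55.8 (Nfkb2) in Usp24WT mice. Rel ranked 6 of the 10 in Usp24C1695A mice and 9 in Usp24WT mice. In this annotation Nfkb1, Nfkb2 and Ikbkb overlap other genes (Gm43430, AC114539.1 and Psd, and Gm15346), and reads could be shared there, because the sources do not state whether strand was used in counting.

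**Figure D5:**
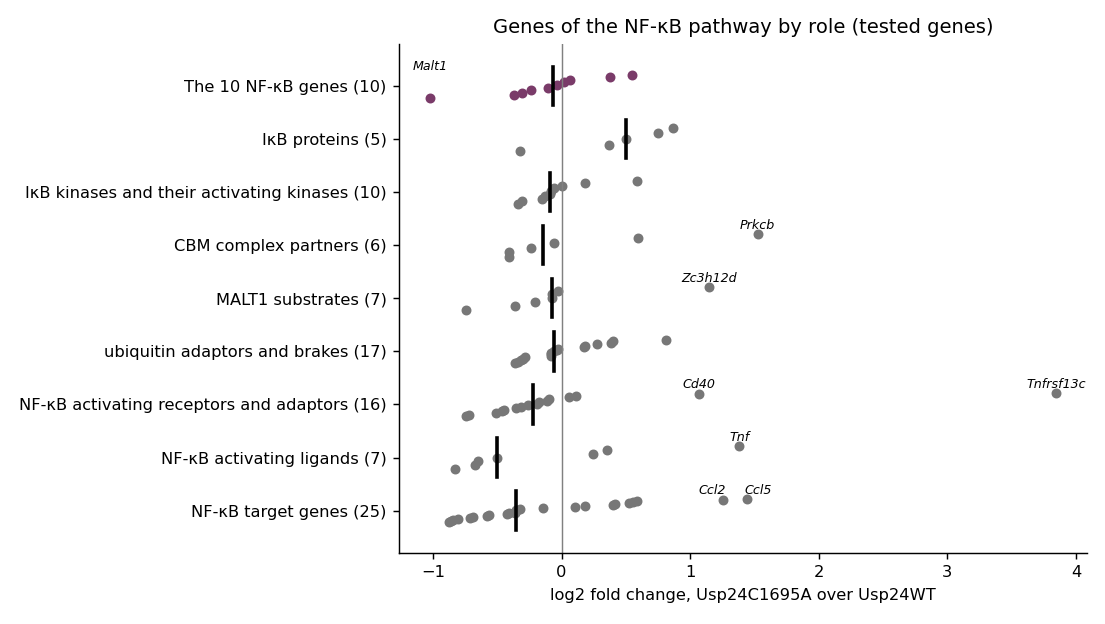
Log2 fold change of Usp24C1695A over Usp24WT (horizontal axis) of every tested gene in the 10-gene group (purple, top) and in 8 lists of other NF-κB pathway genes (grey), with the number of tested genes in parentheses (CBM stands for CARD, BCL10 and MALT1) and the list median as a black bar. Genes beyond 1 on either side are named; list medians lie between -0.50 (activating ligands, 0.30 without the filter on low values) and 0.50 (IκB proteins).

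The rest of the pathway was described in 8 lists by role, with 93 tested genes, also chosen with earlier results of these data known. None passed the threshold by limma-trend, edgeR or DESeq2. At an unadjusted limma-trend p under 0.05 there were 2 higher and 4 lower genes, against 2.61% and 2.93% of all tested genes. The groups did not overlap in 2 higher and 7 lower genes, against 5.07% and 6.03%. The median log2 fold change was -0.11, and 32 of the 93 (34.4%) were positive, against 48.3% of all tested genes. Of the lists, those of ligands and of complex partners lost genes to the filter on low values (3 and 1), and without it 36 of 97 (37.1%) were positive, against 49.8% of all genes.

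Of the other IκB proteins, 4 of 5 had a positive log2 fold change (median 0.50). Nfkbie, which encodes IκBε, was at 119, 245 and 168 in Usp24C1695A mice and at 131, 76.3 and 79.9 in Usp24WT mice (log2 fold change 0.87, SE 0.35, unadjusted p = 0.0376). Mouse M134 lay below Usp24WT mouse M1354, so the groups overlapped. For Nfkbib, which encodes IκBβ, the log2 fold change was 0.50 (SE 0.31), and for Nfkbid, a nuclear IκB protein, it was 0.75 (SE 0.53).

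Of the kinases, 7 of 10 had a negative log2 fold change (median -0.09). Chuk, which encodes IKKα, was at 1177, 1389 and 881 in Usp24C1695A mice and at 1422, 1477 and 1390 in Usp24WT mice (log2 fold change -0.34, SE 0.20). The groups did not overlap, although the value of mouse M145 was just below that of Usp24WT mouse M1370. Tbk1, a kinase of innate sensing, was also lower in every Usp24C1695A mouse (log2 fold change -0.31, SE 0.17). For Ikbke, which encodes IKKε, it was 0.59 (SE 0.34).

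Among the partners of the CARD, BCL10 and MALT1 complex, 2 of 6 tested genes were positive (median -0.15). Prkcb, the protein kinase C that starts this signal in B cells, was at 64.9, 696 and 313 in Usp24C1695A mice and at 54.0, 121 and 89.3 in Usp24WT mice (log2 fold change 1.52, SE 0.76). Mice M145 and M164, with the high B cell sums, stood above all Usp24WT mice, and mouse M134 lay within their range. For Prkcq, its counterpart in T cells, the log2 fold change was 0.59 (SE 0.41), and for Traf6, the ubiquitin ligase that binds MALT1, it was -0.41 (SE 0.22).

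Of the MALT1 substrates, 6 of 7 were negative (median -0.07). N4bp1, a ribonuclease that restrains cytokine and viral RNA, was at 633, 590 and 422 in Usp24C1695A mice and at 930, 656 and 1202 in Usp24WT mice. The groups did not overlap (log2 fold change -0.74, SE 0.26, limma-trend unadjusted p = 0.0221, adjusted p = 0.738). For Rc3h1, which encodes Roquin-1, the log2 fold change was -0.37 (SE 0.23). Zc3h12d, a ribonuclease of lymphocytes, was at 25.3, 126 and 83.2 in Usp24C1695A mice and at 43.6, 25.9 and 20.7 in Usp24WT mice, with mouse M145 highest.

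Ubiquitin adaptors and brakes (6 of 17 positive, median -0.06) included Otulin, which removes linear ubiquitin chains and was higher in every Usp24C1695A mouse (log2 fold change 0.40, SE 0.20). Itch, a ubiquitin ligase that works with A20, was lower in every Usp24C1695A mouse (-0.28, SE 0.18), and for Traf5, an adaptor of TNF receptors, the value was 0.81 (SE 0.40).

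Of the receptors and adaptors upstream, 4 of 16 were positive (median -0.23). Tnfrsf13c, which encodes the BAFF receptor of B cells, was at 5.07, 436 and 182 in Usp24C1695A mice and at 1.04, 15.8 and 3.76 in Usp24WT mice (log2 fold change 3.85, SE 1.49). Cd40, a receptor of B cells and other antigen-presenting cells, was at 40.5, 168 and 89.1 in Usp24C1695A mice and at 33.2, 47.5 and 40.4 in Usp24WT mice. Tlr4, the receptor for lipopolysaccharide, was at 491, 487 and 303 in Usp24C1695A mice and at 745, 438 and 1041 in Usp24WT mice (log2 fold change -0.74, SE 0.34). As for Prkcb, the high values of Tnfrsf13c were those of mice M145 and M164.

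Of the ligands, 3 of 7 tested genes were positive (median -0.50), but this direction rests on the filter: without it 6 of 10 were positive (median 0.30). The 3 added genes are Lta and Ltb, which encode lymphotoxins, and Tnfsf11, which encodes RANKL. Lta was at 2.03, 76.2 and 25.7 in Usp24C1695A mice and at 2.08, 2.88 and 2.82 in Usp24WT mice. Ltb was at 0, 120 and 29.7 in Usp24C1695A mice and at 7.27, 7.20 and 4.70 in Usp24WT mice. Tnfsf11 was at 4.05, 211 and 7.92 in Usp24C1695A mice and at 9.35, 14.4 and 8.46 in Usp24WT mice. Mouse M145, with the highest B and T cell sums, was highest in all 3. Il33, an alarmin of epithelial and stromal cells, was at 4494, 3968 and 2445 in Usp24C1695A mice and at 9091, 3744 and 7203 in Usp24WT mice (log2 fold change -0.83, SE 0.36, unadjusted p = 0.0488). The groups overlapped through Usp24WT mouse M1364. Tnf was at 11.2, 34.6 and 13.9 in Usp24C1695A mice and at 2.08, 8.64 and 11.3 in Usp24WT mice, where the values rest on few reads (log2 fold change 1.38, SE 0.72). The log2 fold change of Il18, a cytokine activated by inflammasomes, was -0.65 (SE 0.42).

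Of the target genes, 9 of 25 were positive (median -0.36). The groups did not overlap in 1 higher and 2 lower genes of the 25, against 5.07% and 6.03% of all tested genes. The 2 lower genes were Il6 and Bcl2l1. Il6, the cytokine, was at 61.8, 47.5 and 41.6 in Usp24C1695A mice and at 97.6, 124 and 63.9 in Usp24WT mice. The highest Usp24C1695A value lay just below the lowest Usp24WT value (log2 fold change -0.87, SE 0.35, limma-trend unadjusted p = 0.0368, adjusted p = 0.738). Bcl2l1, which encodes the survival protein BCL-XL, was at 767, 1001 and 432 in Usp24C1695A mice and at 1026, 1117 and 1559 in Usp24WT mice (log2 fold change -0.81, SE 0.32). The higher gene was Gadd45b, a stress gene outside the rule for named genes that was chosen after its values were seen. It was at 397, 353 and 271 in Usp24C1695A mice and at 253, 269 and 233 in Usp24WT mice (log2 fold change 0.42, SE 0.22). Ccl5, a chemokine of T cells and other leukocytes, was at 13.2, 99.9 and 43.6 in Usp24C1695A mice and at 10.4, 20.2 and 12.2 in Usp24WT mice (log2 fold change 1.44, SE 0.71).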

How the data were processed

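RNA-seq of 6 lung tumor specimens (3 Usp24C1695A and 3 Usp24WT mice) was read from 1 table of 17987 genes. The values deposited by the authors are a signal, namely the count of each gene over a size factor of its library. Alignment was by HISAT2 2.1.0 and the build mm39, as the processing notes of the submitters list them, and the counter, annotation and gene filter are not given in the sources used here. All values (107922) were whole multiples of a step within 1e-06, so whole reads (7167000 to 14650273 per library) were recovered. In mouse M145, where a read is worth nearly 1, the residuals alone show this. The main test was limma-trend on log2(value + 1) for the 16640 genes at 10 or more in at least 3 of 6 libraries, with p adjusted by Benjamini-Hochberg over all of them and 0.05 as the threshold. The pseudocount draws fold changes of low genes toward 0. The methods of the study name DESeq. EdgeR quasi-likelihood and DESeq2 were run on the recovered reads, where 386 genes had no adjusted p by DESeq2. The scripts of limma-trend, edgeR and DESeq2 were tested on simulated data with known changes before use, as a check of the code alone. Versions were DESeq2 1.42.0, edgeR 4.0.16 and limma 3.58.1 under R 4.3.3, and numpy 2.4.6, pandas 2.3.3 and matplotlib 3.10.9 under Python 3.11.15. The 10 genes and all lists were chosen with earlier results of these data known. Named genes were the 10, Usp24, up to 3 genes with the lowest p in each of 8 pathway lists and the 5 genes most like Malt1, and exceptions are stated, with Lta, Ltb and Tnfsf11 among those chosen after their values were seen. Of the pathway lists, Cd40lg, Ccl20 and Csf3 were not in the table, and Card14, Lta, Ltb and Tnfsf11 fell under the filter. Alternatives changed the pseudocount, filter, normalization, tool, weights and covariate, and left out each mouse. Sequences are from RefSeq (GRCm38.p6), with no coordinates carried over to mm39. Protein sequences were not used here.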

Additional observations from a re-analysis of the deposited data

How the results depend on the processing

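No paired analysis was possible because the genotypes share no replicate numbers. In 16 alternatives per gene, the log2 fold changes of Malt1, Rel, Rela, Nfkbia and Bcl10 kept their sign, and no gene of the 10 and none of the pathway lists passed the threshold. Without a single mouse they ranged between -1.31 and -0.48 (Malt1), 0.39 and 0.67 (Rel), -0.51 and -0.13 (Rela), 0.20 and 0.72 (Nfkbia) and -0.52 and -0.14 (Bcl10). The sign turned for genes near 0. Relb was positive with TMM (0.0030), edgeR (0.028), DESeq2 (0.017) and array weights (0.20), Nfkb1 with array weights (0.036), and Tnfaip3 was negative with the Y-linked covariate (-0.076). Without a single mouse, Nfkb1 ranged between -0.39 and -0.05, Nfkb2 between -0.33 and 0.043, Relb between -0.25 and 0.13, Tnfaip3 between -0.28 and 0.27, and Ikbkb between -0.092 and 0.21. The cause was not tested. The median of the ligands was 0.30 without the filter on low values, which adds 3 genes, against -0.50. Over all genes, DESeq2 called 30 higher and 6 lower, and limma-trend called 0 to 40 higher without a single mouse (40 without mouse M134, 5 without mouse M1354), against 0. With array weights Rela was at -0.64 (adjusted p = 0.0971) and Rel at 0.67 (adjusted p = 0.0817). With the Y-linked covariate no gene of the 10 had an unadjusted p under 0.05. The smallest read counts, such as 68 for Relb in mouse M164, limit the precision of the low genes.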
